A study of Mus musculus with 7 samples.

Results

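Voltage-gated calcium channel genes were described here in sorted sensory neurons of mouse embryos that carry 1 or 2 copies of a Runx3-P2 allele. The 10 genes were taken by symbol from the deposited count table of 29777 genes: the pore-forming alpha1 genes Cacna1a, Cacna1b, Cacna1c, Cacna1d, Cacna1e, Cacna1g and Cacna1h, and the alpha2delta genes Cacna2d1, Cacna2d2 and Cacna2d3. All 10 were in the table, and all 10 passed the low-count filter that left 14040 genes for testing.

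An alpha1 subunit alone forms the pore, senses the voltage and selects for calcium. An alpha2delta subunit sits outside the cell, bound to the high-voltage-activated channels, and raises the number of channels at the surface and at synapses. Calcium entering through these channels triggers transmitter release, shapes firing and reaches the nucleus as a signal for transcription. In dorsal root ganglion neurons the low-voltage-activated T-type channels set excitability near rest, and the N-type and P/Q-type channels drive release at the central terminals.

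The cells were sorted by GFP from cervical dorsal root ganglia at E11.5 in the ICR strain, labelled TrkC neurons. GFP sits in the Runx3-P2 allele, so all libraries came from cells with at least 1 altered Runx3 copy; there was no library with 2 intact copies, although the file headers call the heterozygotes WT. There were 3 libraries of Runx3-P2+/- embryos (heterozygotes) and 4 of Runx3-P2-/- embryos (homozygotes, labelled knockout), with 11184237 to 13986835 counts each. GEO's design note mentions a pool of 4 for each genotype, and no label ties a library to its own litter; the p-values therefore reflect library-to-library spread, part of which may be technical.

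Runx3 was at 85.3 ± 15.7 CPM (counts relative to a library's TMM-scaled total; SD, n = 3) with 1 altered copy and at 9.17 ± 3.06 CPM with 2 (SD, n = 4), and Ntrk3, which encodes TrkC, had 685 to 3036 counts in every library. Heterozygote library 3 and homozygote library 3 lay at the ends of the first principal component, which held 63.0% of the variance of the 500 most variable genes. Homozygote library 3 had the lowest summed level of 11 sensory neuron markers, 11786 CPM, against 19461 to 23508 CPM in the other 6 libraries. Leukocyte markers were higher in homozygotes: 13 of the 16 markers in the table were higher in every homozygote than in any heterozygote library. Of all genes tested, 6.6% were. The summed level of the 16 was 291 to 358 CPM in heterozygotes and 642 to 4511 CPM in homozygotes, highest in homozygote library 3. Coro1a, whose groups overlapped, made up 208, 226 and 283 of the 338, 358 and 291 CPM in heterozygote libraries 1 to 3. It was at 247, 261, 621 and 317 CPM in homozygote libraries 1 to 4. Cx3cr1, C1qc, Lyz2 and Mrc1, 4 of these markers, had 0 counts in heterozygote library 3. In sorted populations such as these, fewer cells of a type and less RNA per cell cannot be told apart.

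Cacna2d2 had the lowest p of the 10 genes: its mean level in homozygotes was 2.92-fold lower than in heterozygotes, and every homozygote library was below every heterozygote library. Cacna1a, the P/Q-type pore gene, was also lower in every homozygote library. The other 8 genes overlapped between genotypes. None of the 10 passed the main test (edgeR quasi-likelihood test, Benjamini-Hochberg adjusted p below 0.05 over all genes tested). DESeq2 on the same counts called 1, Cacna2d2, and limma-voom called 0.

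edgeR called 7 of the 14040 genes tested (0.0499%), 5 of them lower (0.0356%), and 0 of 10 members. At an unadjusted p below 0.05 (edgeR) it counted 1 of 10 members against 12.6% of all genes, and DESeq2 called 1 of 10 against 4.76%. Groups without overlap and lower in homozygotes were seen for 2 of 10 members against 5.78% of all genes, and higher ones for 0 of 10 against 6.6%. The log2 fold change of homozygote over heterozygote was negative for 8 of 10 members, against 51.7% of all genes. Its median was -0.33 over the members and -0.0177 over all genes. All 11 sensory neuron markers also had a negative log2 fold change, from -2.43 (Avil) to -0.15 (Elavl3). A lower level was thus not particular to the calcium channel genes. The part of a shift shared by neuronal genes in the members' values was not tested.

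**Figure D1:**
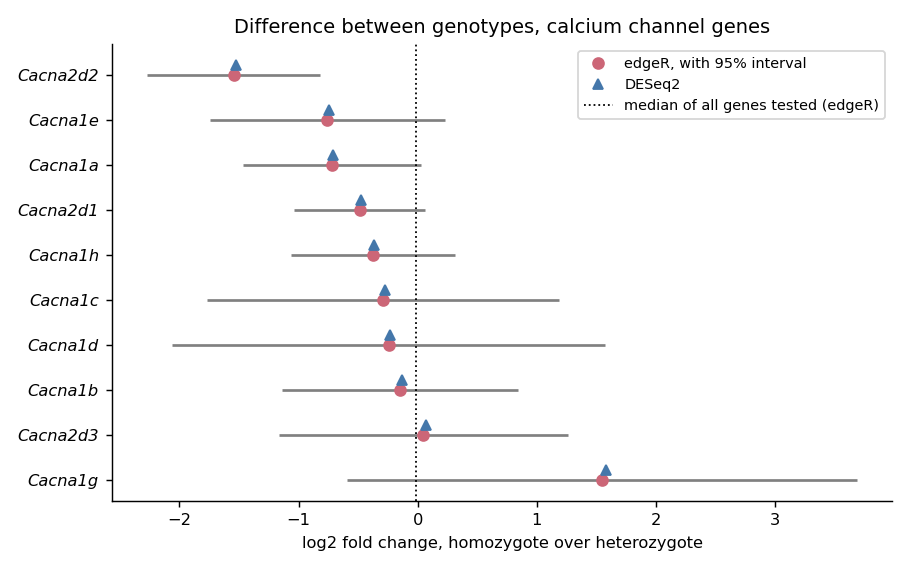
Log2 fold change of homozygote over heterozygote (horizontal axis) for each of the 10 calcium channel genes, from edgeR with its 95% interval (circles and lines) and from DESeq2 (triangles); the dotted line is the median of all genes tested by edgeR. Only the edgeR interval of Cacna2d2, from -2.27 to -0.82, does not include 0.

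The alpha2delta genes are described first. Cacna2d2 encodes alpha2delta-2, a gabapentin-binding subunit whose loss causes the ataxia and epilepsy of the ducky mouse. Its raw counts were 282, 353 and 403 in heterozygote libraries 1 to 3 and 106, 93, 156 and 148 in homozygote libraries 1 to 4. The levels were 21.98, 30.5 and 35.0 CPM against 7.73, 7.23, 12.5 and 12.5 CPM. The lowest heterozygote library thus stood above the highest homozygote library.

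Cacna2d2 averaged 29.2 ± 6.63 CPM over the heterozygotes (SD, n = 3) and 10.002 ± 2.92 CPM over the homozygotes (SD, n = 4). Its log2 fold change was -1.54 ± 0.33 (SE), with a 95% interval of -2.27 to -0.82. Its unadjusted edgeR p of 0.000803 ranked 100 among all genes tested and gave an adjusted p of 0.113, above the threshold. With DESeq2 the adjusted p was 0.00216 at a log2 fold change of -1.53. The authors' deposited table gave Cacna2d2 a log2 fold change of -1.41 and an adjusted p of 0.000788, and it was the 1 member on the authors' list of 464 genes. The log2 fold change was -1.70 to -1.38 over the fits that left out 1 library each, and edgeR adjusted p over these fits ran from 0.104 to 0.380. These tests share the same libraries and are not independent of each other.

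Homozygote library 3 stood differently once Cacna2d2 was set against neuron markers. Per 1000 CPM of the summed sensory neuron markers, Cacna2d2 stood at 1.02, 1.52 and 1.49 CPM for heterozygotes and at 0.397, 0.362, 1.06 and 0.599 CPM in homozygotes. On this scale homozygote library 3 overlapped with heterozygote library 1, and the other 3 homozygote libraries stayed below all heterozygotes. The homozygote mean was 0.605 ± 0.321 CPM (SD, n = 4) with that library and 0.453 ± 0.128 CPM (SD, n = 3) without it, against 1.34 ± 0.281 CPM in heterozygotes (SD, n = 3). The marker list includes Avil, itself called lower by edgeR (adjusted p = 0.0493). Without homozygote library 3 the log2 fold change of Cacna2d2 in CPM was -1.67 (edgeR adjusted p = 0.118), and without libraries 3 of both genotypes it was -1.51 (edgeR adjusted p = 0.347). The part of leukocyte RNA in the result was not tested.

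**Figure D2:**
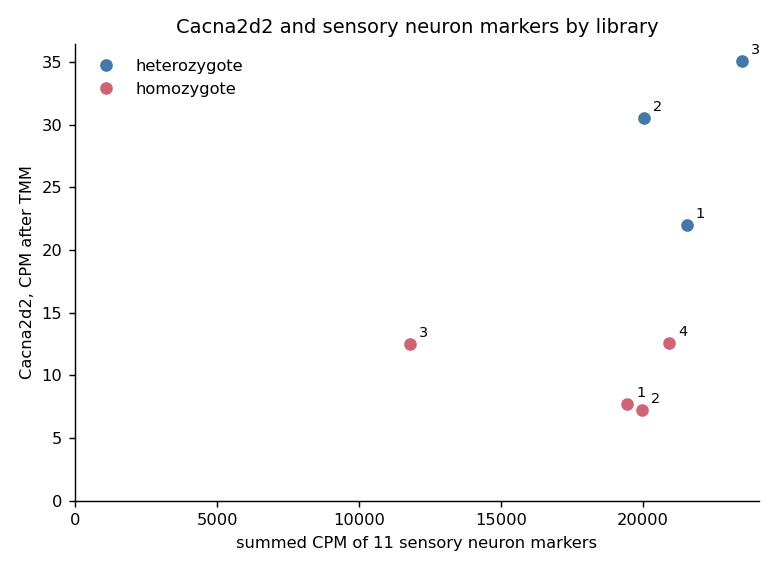
Level of Cacna2d2 (CPM after TMM, vertical axis) against the summed CPM of 11 sensory neuron markers (horizontal axis) in each library, numbered within its genotype. Homozygote libraries 1, 2 and 4 lie at neuron marker sums close to those of heterozygotes with less Cacna2d2, and homozygote library 3 lies apart at 11786 CPM of markers.

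The 250 bases before the annotated start of Cacna2d2 are shown because Runx proteins bind DNA at a short core motif, and this was the member with the lowest p. The motifs searched were TGTGGT and TGCGGT, on both strands (as ACCACA and ACCGCA on the other strand); none overlaps another in these windows. The Cacna1b window holds 1 match, in capitals, and is shown beside it as a member whose levels overlapped between genotypes. Sequences are from RefSeq on GRCm38.p6, 5′ to 3′ on the gene's strand, at chr9:107399630-107399879 (plus strand) and chr2:24763153-24763402 (minus strand); the counts were made on mm9.
Cacna2d2: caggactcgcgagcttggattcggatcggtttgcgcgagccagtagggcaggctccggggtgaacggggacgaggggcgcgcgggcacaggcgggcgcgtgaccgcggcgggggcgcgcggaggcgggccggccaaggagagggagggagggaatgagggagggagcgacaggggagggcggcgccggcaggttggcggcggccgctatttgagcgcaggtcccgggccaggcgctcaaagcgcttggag
Cacna1b: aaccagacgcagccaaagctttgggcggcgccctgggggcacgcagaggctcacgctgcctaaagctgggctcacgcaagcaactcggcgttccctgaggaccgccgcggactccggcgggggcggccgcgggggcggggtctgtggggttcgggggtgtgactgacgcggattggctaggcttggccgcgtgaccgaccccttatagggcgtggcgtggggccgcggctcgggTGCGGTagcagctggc
RefSeq windows were at hand for 7 of the 10 members, 10 windows in all. A match was found in 3 windows, 1 of Cacna1b and 2 of Cacna1c, and none in the Cacna2d2 window. Of 32851 windows of all genes, 18.6% held a match. The absence of these letters from the Cacna2d2 window says nothing about binding elsewhere.

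Cacna2d1 encodes alpha2delta-1, the main gabapentin target in sensory neurons. It had 1758, 1855 and 2218 counts in heterozygotes and 1363, 1687, 969 and 1864 in homozygotes, or 137, 160 and 193 CPM against 99.4, 131, 77.6 and 158 CPM. Homozygote library 4 lay within the heterozygote range and homozygote library 3 was lowest. Its log2 fold change was -0.49 ± 0.25 (SE; edgeR adjusted p = 0.467), with a 95% interval of -1.04 to 0.0596.

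Cacna2d3 encodes alpha2delta-3, which in fly and mouse is needed for responses to noxious heat. It had 92, 153 and 33 counts in heterozygotes and 81, 95, 157 and 73 in homozygotes. The heterozygotes spread 4.61-fold, from 2.87 to 13.2 CPM, and enclosed all 4 homozygotes (5.91 to 12.6 CPM). Its log2 fold change was 0.0469 ± 0.55 (SE; edgeR adjusted p = 0.987); its 95% interval of -1.17 to 1.26 leaves room for changes of either sign.

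The make-up of the alpha2delta group was compared per length, as CPM per kilobase of coding length. Cacna2d2 made up 12.7%, 14.3% and 14.6% of the summed alpha2delta level in heterozygotes and 6.54%, 4.74%, 11.7% and 6.79% in homozygotes. The share was thus lower in every homozygote library, closest to heterozygotes in homozygote library 3. As a ratio of CPM to Cacna2d1 alone, not corrected for length, homozygote library 3 (16.10%) reached heterozygote library 1 (16.04%), so that scale showed overlap. Cacna2d1 held 82.1 ± 2.66% of the summed alpha2delta level in heterozygotes and 86.0 ± 6.76% in homozygotes (SD, n = 3 and 4).

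Among the alpha1 genes, the high-voltage-activated N, P/Q and R types come next. Cacna1a encodes the P/Q-type pore, the main channel of transmitter release at many central synapses, mutated in the ataxic tottering mouse. Its raw counts were 174, 252 and 196 in heterozygotes and 151, 140, 90 and 156 in homozygotes. The levels were 13.6, 21.8 and 17.04 CPM against 11.01, 10.9, 7.21 and 13.2 CPM. The groups did not overlap in CPM, and the gap between heterozygote library 1 and homozygote library 4 was small beside the spread within either genotype. The summed sensory neuron markers were at 21547 CPM in heterozygote library 1 and 20938 CPM in homozygote library 4. Set against these sums, Cacna1a was slightly higher in homozygote library 4 than in heterozygote library 1, so that scale showed overlap.

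The log2 fold change of Cacna1a was -0.72 ± 0.34 (SE), with a 95% interval of -1.47 to 0.0250 and an edgeR adjusted p of 0.416. It was negative in all 17 alternative fits, from -0.86 to -0.53, and called in none. The authors' deposited table gave Cacna1a a log2 fold change of -0.66 and an adjusted p of 0.262.

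Cacna1e encodes the R-type pore. It had 883, 611 and 1292 counts in heterozygotes and 519, 622, 218 and 953 in homozygotes, or 68.8, 52.8 and 112 CPM against 37.8, 48.4, 17.5 and 80.8 CPM. Homozygote libraries 1, 2 and 3 were below every heterozygote library, and homozygote library 4 lay within their range. Between genotypes the log2 fold change was -0.76 ± 0.44 (SE; edgeR adjusted p = 0.543), from -1.74 to 0.23 at 95%. Without libraries 3 of both genotypes, the ends of the range, it was -0.13 (edgeR adjusted p = 0.977).

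Cacna1b encodes the N-type pore, through which nociceptor terminals release transmitter in the dorsal horn. It had 159, 86 and 154 counts in heterozygotes and 62, 138, 126 and 172 in homozygotes, or 7.44 to 13.4 CPM against 4.52 to 14.6 CPM. The homozygotes enclosed all the heterozygotes. Cacna1b had a log2 fold change of -0.15 ± 0.44 (SE; edgeR adjusted p = 0.943), with a 95% interval of -1.14 to 0.84.

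The L-type genes were low. Cacna1c, the pore of heart and smooth muscle that also signals to the nucleus in neurons, had 43, 93 and 31 counts in heterozygotes and 38, 19, 54 and 80 in homozygotes. Cacna1d, the pore of inner hair cells and sinoatrial pacemaking, had 70, 10 and 71 counts against 12, 67, 29 and 67. Both genes varied more within a genotype than between the means of the genotypes: Cacna1d spread 7.14-fold among heterozygotes and 6.49-fold among homozygotes. Heterozygote library 2 and homozygote library 1 were the low libraries for Cacna1d, at 0.865 and 0.875 CPM, against 2.32 to 6.17 CPM in the other 5. The log2 fold change was -0.29 ± 0.66 for Cacna1c and -0.24 ± 0.82 for Cacna1d (SE; edgeR adjusted p = 0.919 and 0.950). At these counts the 95% intervals, -1.77 to 1.18 and -2.06 to 1.57, exclude neither a halving nor a doubling.

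The T-type genes were far apart in level. Cacna1h encodes the T-type pore of low-threshold mechanoreceptors and of many nociceptors. It had 792, 1316 and 948 counts in heterozygotes and 576, 1309, 737 and 730 in homozygotes, or 61.7, 114 and 82.4 CPM against 42.01, 102, 59.0 and 61.9 CPM. Homozygote library 2 was among the highest of all, and the groups overlapped. Cacna1h had a log2 fold change of -0.38 ± 0.31 (SE; edgeR adjusted p = 0.698), with a 95% interval of -1.07 to 0.31.

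Cacna1g, the T-type pore known best from thalamic relay neurons, was the member with the lowest level and the only one with a sizeable positive difference. It had 25, 7 and 1 counts in heterozygotes and 49, 30, 36 and 19 in homozygotes, or 1.95, 0.605 and 0.0869 CPM against 3.57, 2.33, 2.88 and 1.61 CPM. Homozygote library 4 fell below heterozygote library 1, so the groups overlapped. The mean was 0.880 ± 0.961 CPM (SD, n = 3) against 2.60 ± 0.832 CPM (SD, n = 4). Cacna1g had a log2 fold change of 1.55 ± 0.96 (SE; edgeR adjusted p = 0.571), from -0.60 to 3.69 at 95%.

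Markers of spinal cord cells followed Cacna1g in some libraries and not in others. Of 11 markers, all in the table, 5 were abundant enough to test. Their log2 fold changes were 3.88 for Sox1, 2.58 for Pax6, 2.36 for Lhx1, 1.63 for Lhx5 and -0.13 for En1. None of these passed (edgeR adjusted p from 0.301 to 0.987). Only Lhx1, 1 of the 5, was higher in every homozygote than in any heterozygote library, against 6.6% of all genes. The summed level of the 11 was 9.90, 16.4 and 0.0869 CPM in heterozygotes and 34.0, 28.8, 63.1 and 9.49 CPM in homozygotes. Heterozygote library 3, lowest for Cacna1g, had 0 counts of 10 of the 11 markers: Pax6, Olig2, Nkx6-1, Nkx2-2, Dbx1, Dbx2, Pax2, Lhx1, En1 and Sox1. Heterozygote library 2, by contrast, had a higher marker sum than heterozygote library 1 and homozygote library 4 and less Cacna1g than either. The part of such RNA in the Cacna1g values was not tested.

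**Figure D3:**
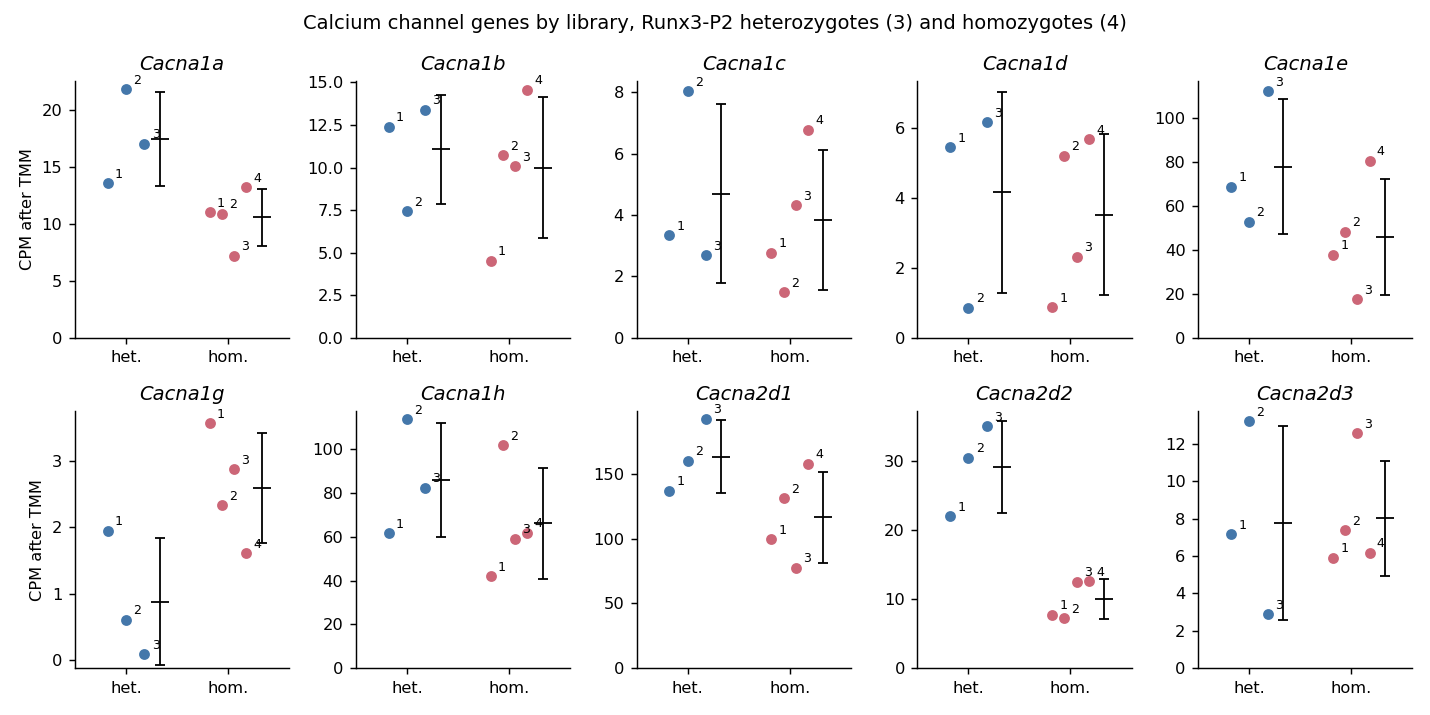
Level of each of the 10 calcium channel genes (CPM after TMM, linear axes that differ between panels) in heterozygote and homozygote libraries, numbered within their genotype; black marks are the mean and SD. The groups separate in the panels of Cacna2d2 (21.98 to 35.0 against 7.23 to 12.5 CPM) and Cacna1a (13.6 to 21.8 against 7.21 to 13.2 CPM).

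Levels were next compared between genes, per kilobase of coding length (the longest coding sequence in GENCODE M21). In heterozygotes Cacna2d1 was highest at 49.4 ± 8.47 CPM per kilobase, followed by Cacna1h at 12.2 ± 3.71, Cacna1e at 11.4 ± 4.51 and Cacna2d2 at 8.41 ± 1.91 CPM per kilobase (SD, n = 3). In homozygotes these 4 kept their order at 35.2 ± 10.7, 9.35 ± 3.58, 6.76 ± 3.88 and 2.88 ± 0.840 CPM per kilobase (SD, n = 4). Cacna2d1 exceeded Cacna1h in 7 of 7 libraries. Cacna1h exceeded Cacna1e in 4 of 7 libraries only, and Cacna1e exceeded Cacna2d2 in 5 of 7, so these neighbours did not keep their order in every library. Differences between genes were not tested.

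The rest of the order lay lower. Cacna2d3 was at 2.37 ± 1.59 CPM per kilobase in heterozygotes and 2.45 ± 0.950 in homozygotes, and Cacna1a at 2.46 ± 0.582 and 1.49 ± 0.351 CPM per kilobase (SD, n = 3 and 4). Cacna1b, Cacna1c, Cacna1d and Cacna1g followed, from 1.59 down to 0.123 CPM per kilobase in heterozygotes. Neighbours in this stretch changed places in 1 to 3 of 7 libraries. Per kilobase of the full transcript, Cacna1e, whose annotated transcript of 14921 bases is more than double its coding length of 6819 bases, was 4th instead of 3rd in heterozygotes, behind Cacna2d2, and Cacna2d2 was 5th instead of 4th in homozygotes.

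Among the 7 alpha1 genes, Cacna1h and Cacna1e together made up most of the summed level in every library. Cacna1h held 36.2%, 54.7% and 34.5% in heterozygotes and 40.3%, 55.6%, 56.5% and 32.8% in homozygotes. Cacna1e held 41.9%, 26.4% and 48.7% against 37.7%, 27.4%, 17.3% and 44.5%. The balance of these 2 genes differed more between libraries of a genotype than between genotypes: heterozygote library 2 and homozygote libraries 2 and 3 were rich in Cacna1h, and heterozygote libraries 1 and 3 and homozygote library 4 held more Cacna1e. The L-type genes together held 3.73% to 7.08% in all libraries. The summed alpha1 level was 24.1, 29.4 and 33.8 CPM per kilobase in heterozygotes and 14.7, 25.9, 14.8 and 26.7 in homozygotes.

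**Figure D4:**
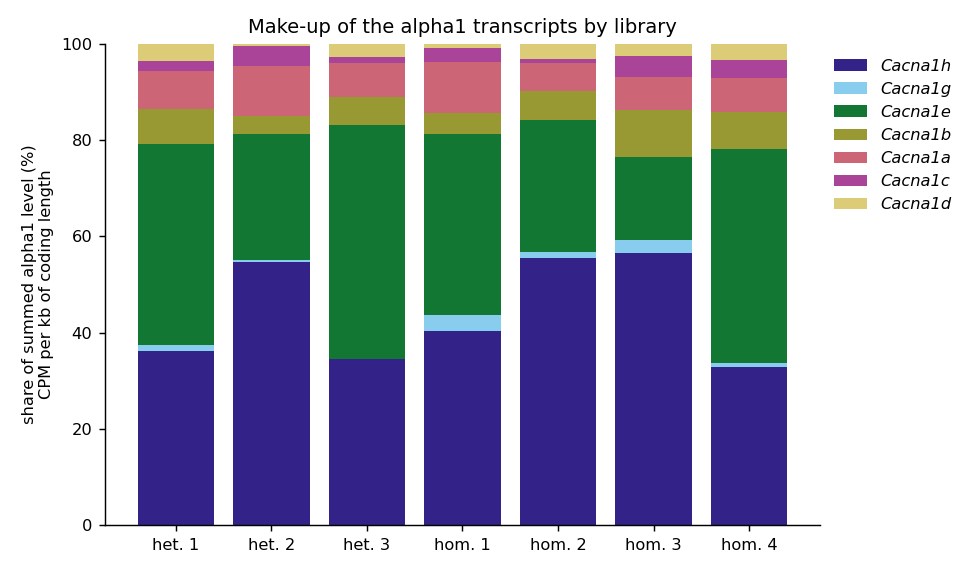
Share of each alpha1 gene in the summed alpha1 level of a library (vertical axis, percent of CPM per kilobase of coding length), for 3 heterozygote (het.) and 4 homozygote (hom.) libraries. Cacna1h (32.8% to 56.5%) and Cacna1e (17.3% to 48.7%) hold the largest shares, and their balance varies within both genotypes.

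Genes that work with these channels were taken from a list of 83 genes, of which 67 were tested. edgeR called 0 of them; 9 had an unadjusted p below 0.05 and were lower, against 4.88% of all genes, and 5 were higher, against 7.75%. DESeq2 called 1 lower, against 1.31% of all genes, and 2 higher, against 3.45%. Groups without overlap were lower for 10 of 67, against 5.78% of all genes, and higher for 2 of 67, against 6.6%. The median log2 fold change was -0.18. This list, like the members, was chosen with earlier results of these data known. The shares are therefore a description and not a test.

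Of the subunits that join the pore, the beta subunits bind inside the cell and carry alpha1 to the surface. Cacnb3 stood at 228 ± 20.4 CPM against 179 ± 62.5 CPM, heterozygotes first (SD, n = 3 and 4; edgeR adjusted p = 0.675). Cacnb4 was at 19.3 ± 6.44 and 18.3 ± 1.999 CPM (edgeR adjusted p = 0.956). Cacng5, of the gamma family that includes AMPA receptor partners, had 408, 450 and 545 counts in heterozygotes and 174, 354, 97 and 342 in homozygotes. Every homozygote library was lower, and the log2 fold change of -1.03 ± 0.43 (SE) did not pass (edgeR adjusted p = 0.356; DESeq2 adjusted p = 0.216). Cacng2 (stargazin) was at 1.05 ± 0.65 and Cacng4 at -0.26 ± 0.34 on the log2 scale (SE; edgeR adjusted p = 0.571 and 0.841). Nalcn, a sodium leak channel related to alpha1, was at -0.32 ± 0.50 (SE; edgeR adjusted p = 0.867).

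Among channel regulators, Stac, an adaptor of L-type channels, had 99, 65 and 120 counts in heterozygotes and 29, 8, 49 and 11 in homozygotes. Every homozygote library was lower, with a log2 fold change of -2.05 ± 0.68 (SE; edgeR adjusted p = 0.234; DESeq2 adjusted p = 0.0902). Calm2, a calmodulin gene, was at -0.18 ± 0.14 (SE; edgeR adjusted p = 0.676).

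Thrombospondins are secreted ligands of alpha2delta-1. Thbs1 had 61, 74 and 5 counts in heterozygotes and 275, 59, 620 and 157 in homozygotes, with a log2 fold change of 2.50 ± 0.91 (SE; edgeR adjusted p = 0.281); DESeq2 called it higher (adjusted p = 0.0325). Its highest library, homozygote 3, was also the highest in the summed leukocyte markers, and their part in this value was not tested. Thbs3 was lower in every homozygote library, at 28.0 ± 2.97 against 15.1 ± 5.604 CPM (SD, n = 3 and 4; edgeR adjusted p = 0.277).

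Store-operated entry uses Stim sensors in the endoplasmic reticulum and Orai channels in the plasma membrane. Stim2 was at -0.97 ± 0.36 and Orai2 at -0.76 ± 0.26 on the log2 scale (SE; edgeR adjusted p = 0.295 and 0.249), both lower in every homozygote library. The store pump Atp2a2 was at -0.44 ± 0.20 (SE; edgeR adjusted p = 0.395). Of the genes that export calcium, Slc24a2, a potassium-dependent sodium-calcium exchanger, had 131, 176 and 130 counts in heterozygotes and 34, 69, 37 and 63 in homozygotes. All homozygotes were lower; the log2 fold change was -1.60 ± 0.44 (SE; edgeR adjusted p = 0.161), and DESeq2 called it lower (adjusted p = 0.0306). Slc8a1 was at -0.89 ± 0.37 and the plasma membrane pump Atp2b1 at -0.0818 ± 0.17 (SE; edgeR adjusted p = 0.357 and 0.907).

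Effectors and buffers did not pass either. Camk2b, a calmodulin-dependent kinase, was at -1.06 ± 0.43 (SE; edgeR adjusted p = 0.346) and lower in every homozygote library. Nfatc1, a calcineurin-driven transcription factor also known from blood cells, had 7, 22 and 0 counts in heterozygotes and 190, 58, 222 and 2 in homozygotes (edgeR adjusted p = 0.340). Ppp3cb, a calcineurin catalytic subunit, was at -0.18 ± 0.18 and Creb1, a calcium-responsive transcription factor, at -0.14 ± 0.32 (SE; edgeR adjusted p = 0.787 and 0.925). Calb1, the buffer calbindin, was at 2.27 ± 1.01 from 3, 1 and 10 against 14, 28, 15 and 40 counts (SE; edgeR adjusted p = 0.392), higher in every homozygote library. Pvalb, the buffer parvalbumin of proprioceptive neurons, was at -2.32 ± 1.35 (SE; edgeR adjusted p = 0.540). Its counts were low, 22, 19 and 20 in heterozygotes and 0, 2, 0 and 14 in homozygotes, and every homozygote library was lower. The neuronal calcium sensors Hpca and Hpcal1 were at -0.0528 ± 0.37 and 0.58 ± 0.41 (SE; edgeR adjusted p = 0.976 and 0.628).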

How the data were processed

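Raw counts per gene and library were deposited by the authors. The submitters' processing notes list mm9 as the build and, as tools whose roles are left unsaid, TopHat 1.4.0, DESeq2 1.2.8 and HTSeq; the annotation and strandedness were not given in the sources used here. Libraries came from amplified cDNA read as single ends, per the labels' protocols. The authors' deposited normalized reads (a signal: raw count over 1 factor per library) and test score were not used. Adjusted p-values and log2 fold changes from the authors' deposited table are quoted for comparison only, with the sign turned to homozygote over heterozygote.

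Counts were filtered with filterByExpr (minimum count 10, minimum total 15), scaled by TMM and tested with edgeR 4.0.16 (glmQLFit with the default quasi-dispersion, glmQLFTest, two-sided, R 4.3.3), adjusted over all 14040 genes tested. SE is the log2 fold change over the square root of F; 95% intervals use the SE and the degrees of freedom of the fit. Alternatives were DESeq2 1.42.0, limma-voom (limma 3.58.1), other scalings, filters and dispersions, a window of label dates and left-out libraries. The steps were run on simulated counts with known changes, drawn with no outlying library. How often they miss a change in libraries such as these was not tested. Pairs of libraries of a genotype all differed beyond sampling noise, with a chi-square of 30.7 to 76.4 per degree of freedom.

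The members and lists were chosen with earlier results of these data known. From each part of the wider list, the 2 genes with the smallest p and the 2 with the highest mean are named, except 1 that is not reported here. Protein lengths, planned as the base of levels per length, were not at hand; coding lengths of GENCODE M21 were used. On that annotation, antisense or neighbouring models overlap exons of Cacna1a (Gm16183), Cacna1d (Chdh), Cacna1h (Tpsg1) and Cacna2d2 (Gm17141); without a stated strand, reads of such pairs cannot be told apart. Chdh had 2 counts and Tpsg1 at most 7 counts in any library. Counts of Gm16183 and Gm17141 are not given here, and their part in the values of Cacna1a and Cacna2d2 was not tested.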

Additional observations from a re-analysis of the deposited data

How the results depend on the processing

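Cacna2d2 was lower in homozygotes in all 17 alternative fits, at log2 fold changes from -1.70 to -1.38; DESeq2 called it (-1.53; adjusted p = 0.00216), and the other 16 did not, at adjusted p from 0.0716 (edgeR with the adjusted quasi-dispersion) to 0.380 (edgeR without heterozygote library 3). DESeq2 called 1 member where edgeR called 0, and 3 genes of the wider list where edgeR called 0; no other fit called a gene of either list, those without 1 library included (0 and 0).

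Over all genes edgeR called 7; DESeq2 called 668 (484 higher, 184 lower), edgeR without a count filter 80 (48 higher, 32 lower), with a minimum count of 50 44 (22 higher, 22 lower), with the adjusted quasi-dispersion 62 (25 higher, 37 lower) and without libraries 3 of both genotypes 12 (9 higher, 3 lower). With 1 library left out the count ran from 1, when heterozygote library 2 or 3 was dropped, to 27, when it was homozygote library 3. Why these counts differ was not tested.

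Cacna1a, Cacna1e, Cacna1g, Cacna1h and Cacna2d1 kept their direction in every fit that tested them; with a minimum count of 50, Cacna1g was not tested. Their sizes moved: over fits without 1 library, Cacna1a ran from -0.86 to -0.53, Cacna1e from -1.17 (homozygote library 4) to -0.39 (heterozygote library 3), Cacna1g from 1.03 (heterozygote library 3) to 2.89 (heterozygote library 1), Cacna1h from -0.66 (homozygote library 2) to -0.12 (heterozygote library 2) and Cacna2d1 from -0.67 to -0.33. In the window of label dates Cacna1e was at -0.27, Cacna1h at -0.07 and Cacna2d1 at -0.18, and without libraries 3 of both genotypes Cacna1e was at -0.13, Cacna1g at 0.96 and Cacna2d1 at -0.20. The sign turned for 4 members, none of them called in any fit. In the window of label dates (without homozygote libraries 1 and 3) Cacna1b was at 0.19, Cacna1d at 0.38 and Cacna2d3 at -0.19. Without libraries 3 of both genotypes these were at 0.00533, 0.31 and -0.65. Over fits without 1 library, Cacna1b ran from -0.39 to 0.11 (turning without heterozygote library 3 or homozygote library 1), Cacna1c from -0.71 to 0.34 (heterozygote library 2), Cacna1d from -0.72 to 0.17 (heterozygote library 1 or 3 or homozygote library 1) and Cacna2d3 from -0.34 to 0.67 (library 3 of either genotype). The cause was not tested.

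Each library has a label date of its own, so no date holds libraries of both genotypes, and date and genotype cannot be told apart within a date; the title of heterozygote library 1 gives another month than its source name, which was used. No paired analysis was possible because the labels give no replicate numbers. Depth limits Cacna1c, Cacna1d and Cacna1g, with 1 to 93 counts per library.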

Other observations

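Members of the same gene families outside the 10 were mostly below the count filter. Cacna2d4, an alpha2delta gene of retinal photoreceptors, had 0, 19 and 16 counts in heterozygote libraries 1 to 3 and 0 in each homozygote library. Cacna1s, the L-type pore of skeletal muscle, had 0, 9 and 1 counts in heterozygotes and 21, 0, 0 and 0 in homozygotes. Cacna1f, the L-type pore of photoreceptors, had 2 to 18 counts in every library, and Cacna1i, a T-type pore, had 2 counts in homozygote library 1 and 0 elsewhere. No test was run on these genes.

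Cacng1, the gamma subunit of the skeletal muscle channel, had 15 counts in homozygote library 2 and 0 in the other 6. The summed level of 9 skeletal muscle markers was 253 CPM in that library and 8.48 to 35.7 CPM in the others. Cacna1s, of the same channel, had 0 counts in homozygote library 2.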
